A study of Homo sapiens with 12 samples.

Results

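Under ESRRG overexpression (OE), the arrays labelled MKN45 differed from those labelled AGS in many genes, mostly by less than 2-fold. Chaperone and proteasome genes were more often higher than lower in the MKN45-labelled cells, and genes of amino acid supply and detoxification more often lower than higher. The largest single differences were a higher UGT1A6, a conjugating enzyme, and lower LGALS4 and LYZ, a gut galectin and lysozyme. The comparison rests on 6 of the 12 arrays of the series, 3 MKN45 ESRRG OE against 3 AGS ESRRG OE, chosen by their labels. The 6 control-vector arrays served to set the same comparison of lines beside it.

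ESRRG, estrogen-related receptor gamma, is a transcription factor that binds a short DNA element and activates genes with no natural ligand known. The family is known for driving genes of mitochondrial respiration, and in mouse stomach ESRRG is known for a role in acid-secreting parietal cells. MKN45 and AGS are established lines from human gastric adenocarcinomas, and MKN45 is known for extra copies of the receptor tyrosine kinase gene MET.

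Both lines were infected with a lentiviral vector, pCDH-EF1, either carrying ESRRG or as a control, grown in RPMI1640, and harvested after 3 days. Each of the 4 groups, MKN45 ESRRG OE, AGS ESRRG OE, MKN45 control and AGS control, was measured on 3 Illumina BeadChip arrays, 1 array per sample. The control groups also carried virus, so every sample had been transduced. Nothing in the sources states separate cultures within a group, so the p-values reflect how far these 3 samples spread, and that spread could be technical only.

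Of the 47323 probes on the array, 20210 had a detection p-value under 0.05 on at least 3 of the 6 ESRRG OE arrays, and these covered 11253 named genes, each represented by its brightest kept probe. Between 19483 and 20397 probes were detected on each of these 6 arrays. The 3 ESRRG probes did not check the vector: 2 were detected on no array, and the third was at 6.85, 7.03 and 6.93 log2 units in MKN45 ESRRG OE and at 7.11, 6.79 and 6.79 in AGS ESRRG OE, no higher than the 7.15, 7.35 and 7.31 of AGS control. Epithelial identity was clear, with KRT8, KRT18, KRT19 and EPCAM, keratins and an adhesion molecule of epithelia, detected on all 6 arrays. Fibroblast markers were nearly absent, with 0 of 9 genes in MKN45-labelled and 1 of 9 in AGS-labelled arrays detected on all 3 arrays, and of 7 endothelial markers 1 was detected in each.

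The cell line labels could not be settled from the arrays. MET was at 9.44, 9.56 and 9.39 in MKN45-labelled ESRRG OE and at 9.61, 9.63 and 9.66 in AGS-labelled ESRRG OE (log2 difference -0.17, adjusted p = 0.091). Under control MET was at 9.20, 9.31 and 9.22 in MKN45-labelled and at 9.15, 9.11 and 8.94 in AGS-labelled arrays. MET did not set the labels apart past the test in either state, although extra copies are known from MKN45. Across the kept probes, arrays with different line labels correlated at 0.974 to 0.982 in the ESRRG OE state and at 0.983 to 0.987 in the control state, at or above the correlations of ESRRG OE with control arrays of 1 label (0.966 to 0.974 for MKN45 and 0.956 to 0.961 for AGS). The reason was not tested, and the groups are called by their labels throughout.

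At an adjusted p under 0.05 from limma, 2223 of the 11253 genes were higher in MKN45-labelled cells (19.8%) and 2057 lower (18.3%), and 27 (0.24%) were over 2-fold higher and 82 (0.729%) over 2-fold lower. These shares are the background for every gene group below. The median absolute difference was 0.17 log2 units, and 87.3% of genes were detected on all 6 arrays. The balance of the calls rested on the quantile normalization: with the arrays only scaled to one median, the median of all genes was 0.17, where the deposited values gave 0.01, and 84.5% of 5315 calls were higher in MKN45-labelled cells, where the deposited values gave 51.9%. All 109 genes over 2-fold were still past the test under that scaling.

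**Figure D1:**
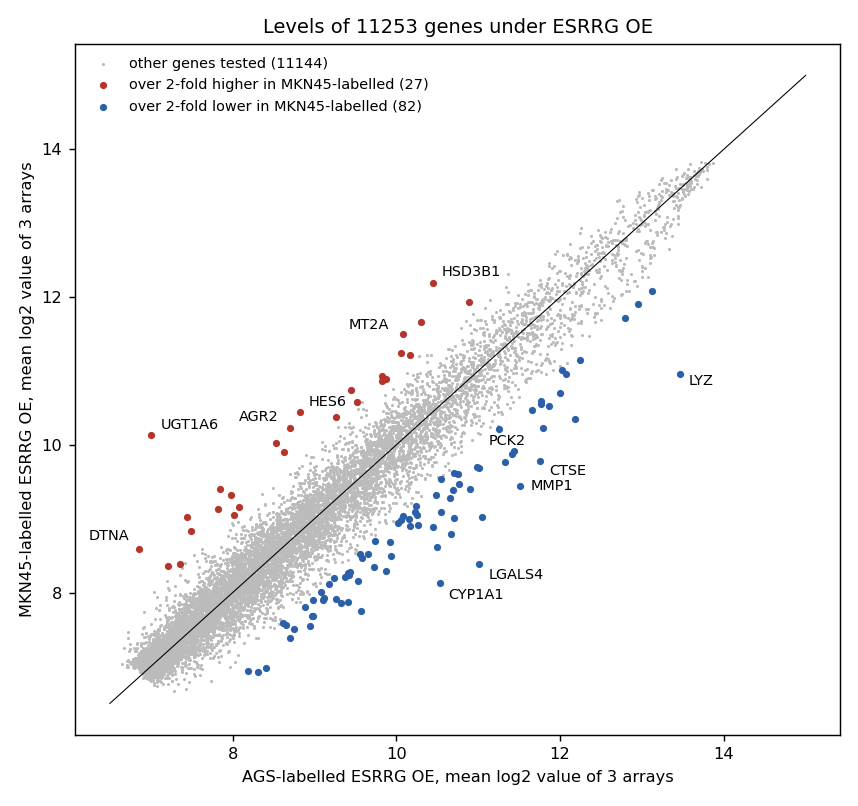
Mean log2 value of each of 11253 genes over the 3 MKN45-labelled ESRRG OE arrays (vertical axis) against the 3 AGS-labelled ESRRG OE arrays (horizontal axis), with the line of equal values. Most genes lie close to the line; the 27 red genes were over 2-fold higher and the 82 blue genes over 2-fold lower in MKN45-labelled cells.

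UGT1A6, a glucuronosyltransferase that conjugates phenols and drugs, showed the largest difference. It was at 10.13, 10.12 and 10.15 log2 units in MKN45-labelled arrays, against 7.03, 7.04 and 6.95 in AGS-labelled arrays, where values near 7 are at the detection limit. The groups were far apart, at an 8.75-fold difference (log2 3.13, SE 0.07, adjusted p = 5.5e-11), and both further UGT1A6 probes showed the same pattern. Genes of the UGT1A locus share their last exons, and UGT1A1, another of them, differed by -0.07 (not past the test). UGT1A6 also separated the labels in the control state (2.55).

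HSD3B1, a hydroxysteroid dehydrogenase of steroid hormone synthesis, followed. It was at 12.32, 12.04 and 12.20 in MKN45-labelled ESRRG OE arrays, against 10.60, 10.44 and 10.29 in AGS-labelled ones (3.36-fold, log2 1.75, SE 0.10, adjusted p = 1.5e-07). In the control arrays it lay near the detection limit, at 7.19, 7.06 and 7.04 in MKN45-labelled and 6.85, 6.86 and 7.19 in AGS-labelled cells. HSD3B1 thus separated the lines in the ESRRG state. It was detected on 3 MKN45 control arrays but on 1 AGS control array, so its control difference (0.13, adjusted p = 0.51) was poorly measured. The interaction of 1.62 (adjusted p = 1.4e-06) carries the same limit. Its probe may also read the near-identical HSD3B2.

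The promoter window of HSD3B1 (RefSeq, GRCh38.p14, chr1:119506953-119507252, plus strand, a 300-base window around the start) is shown because the gene had the largest positive interaction. Capitals mark AAGGTCA, the core of the element bound by estrogen-related receptors, searched on both strands. It is 1 match, starting 123 bases before the transcription start; 3.97% of the 27305 windows in the table and 2.54% of the 9022 windows of tested genes hold this motif, against 1 of 23 windows of the genes over 2-fold higher in MKN45-labelled cells (4.35%) and 3 of 54 of those over 2-fold lower (5.56%).
HSD3B1: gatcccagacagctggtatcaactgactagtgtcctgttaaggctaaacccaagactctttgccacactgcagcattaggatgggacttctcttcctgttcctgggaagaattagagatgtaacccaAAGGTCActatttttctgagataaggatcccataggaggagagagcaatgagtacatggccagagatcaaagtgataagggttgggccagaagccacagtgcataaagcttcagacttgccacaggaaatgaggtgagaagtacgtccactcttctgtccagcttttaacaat

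DTNA, a dystrobrevin of the dystrophin-associated complex, was at 8.63, 8.67 and 8.49 in MKN45-labelled arrays, against 6.77, 6.92 and 6.89 in AGS-labelled arrays, where it was detected on none. This is at least 3.08-fold higher in MKN45-labelled cells (adjusted p = 3.2e-08), a lower bound because the dim group is set at the level of the faintest detected probes. HES6, a helix-loop-helix regulator related to Notch effectors, was at 10.49, 10.43 and 10.42 in MKN45-labelled arrays, against 8.72, 8.85 and 8.88 in AGS-labelled arrays (3.1-fold, adjusted p = 3.2e-08). LMCD1, a LIM domain cofactor, was 2.98-fold higher, with 9.01, 8.98 and 9.08 in MKN45-labelled and 7.43, 7.45 and 7.46 in AGS-labelled arrays. Groups that do not overlap were a condition for naming these genes, and 5626 of the 11253 tested genes met that condition.

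Epithelial and secretory genes were also among the highest differences. CLDN6, a claudin of early epithelia, was at 9.44, 9.31 and 9.44 in MKN45-labelled arrays, against 7.79, 8.02 and 7.73 in AGS-labelled arrays (2.93-fold, adjusted p = 1.9e-07). AGR2, a protein disulfide isomerase needed for mucin folding, was 2.9-fold higher, at 10.07, 10.33 and 10.28 in MKN45-labelled arrays, against 8.63, 8.63 and 8.82 in AGS-labelled arrays. CA2, a carbonic anhydrase, was 2.81-fold higher, at 9.98, 10.14 and 9.93 in MKN45-labelled arrays, against 8.46, 8.60 and 8.54 in AGS-labelled arrays. The log2 differences of CLDN6, AGR2 and CA2 were 1.55, 1.53 and 1.49 under ESRRG OE, against 2.10, 2.40 and 2.22 under control, and their negative interactions passed the test (-0.54, -0.87 and -0.74).

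The other genes among the 15 largest higher differences lay between 2.41-fold and 2.67-fold. They were MT2A, a metal-binding metallothionein (1.42), PTMA, prothymosin (1.36), FGD3, an exchange factor for small GTPases (1.35), CYTH3, an exchange factor for ARF GTPases (1.34), TMEM52B (1.32), PLA2G2A, a secreted phospholipase (1.30), and ZNF670, a zinc finger protein (1.27). PTMA was at 11.65, 11.61 and 11.72 in MKN45-labelled arrays, and in AGS-labelled arrays, where replicate 3 was the highest at 10.81, it averaged 10.3 ± 0.44 (SD, n = 3). Probes of MT2A and PTMA may also read close relatives or pseudogenes.

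Lower in MKN45-labelled cells by the largest margin was LGALS4, a galectin of the intestinal epithelium. It was at 8.44, 8.51 and 8.20 in MKN45-labelled arrays, against 11.12, 10.95 and 10.97 in AGS-labelled arrays (6.18-fold lower, log2 -2.63, SE 0.09, adjusted p = 2.7e-09). LYZ, lysozyme of gastric glands and myeloid cells, was at 10.85, 11.11 and 10.90 in MKN45-labelled arrays, against 13.47, 13.48 and 13.45 in AGS-labelled arrays (5.69-fold lower, adjusted p = 1.6e-09). LYZ is also the brightest of the leukocyte markers checked, and the summed level of that list was 4349 to 4921 in MKN45-labelled and 13750 to 14150 in AGS-labelled arrays. Of the list's 14 genes on the array, 5 were detected on all 3 MKN45-labelled and 6 on all 3 AGS-labelled arrays. Beside LYZ, CD2 (0.24) and LCP1 (0.25) were higher, CSF1R (-0.24) lower and CD68 by its brightest probe (-0.05) not past the test. Further CD68 probes averaged 9.33 and 7.69 in MKN45-labelled arrays, against 8.87 and 7.47 in AGS-labelled arrays. CD3D, CD3E, CD8A and CD14 were detected on no array. The part of these markers in the LYZ difference was not tested. The samples were cultures labelled as 1 cell line each, not tissue. In their bulk RNA, fewer cells that express LYZ and less LYZ RNA per cell cannot be told apart. Under control LGALS4 differed by -1.06, with an interaction of -1.56 past the test, and LYZ by -2.33, with an interaction of -0.18 not past it.

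CYP1A1, the cytochrome P450 induced through the aryl hydrocarbon receptor, was at 7.95, 8.37 and 8.08 in MKN45-labelled arrays, against 10.84, 10.42 and 10.32 in AGS-labelled arrays (5.26-fold lower, adjusted p = 1.6e-07). MMP1, interstitial collagenase, was at 9.30, 9.61 and 9.40 in MKN45-labelled arrays, against 11.47, 11.47 and 11.58 in AGS-labelled arrays (4.2-fold lower). VTN, the plasma adhesion protein vitronectin, was at 9.09, 8.92 and 9.05 in MKN45-labelled arrays, against 11.08, 10.97 and 11.08 in AGS-labelled arrays (4.06-fold lower). CTSE, an aspartic protease of gastric surface cells, was 3.94-fold lower and GPX2, the gastrointestinal glutathione peroxidase, 3.56-fold lower, with log2 differences of -1.98 and -1.83 under ESRRG OE, against -1.99 and -1.68 under control. HMOX1, which degrades heme, was 3.69-fold lower, at 8.69, 8.48 and 8.68 in MKN45-labelled and 10.56, 10.63 and 10.31 in AGS-labelled arrays.

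The remaining genes of the 15 largest lower differences were RASIP1, a Ras-interacting protein (-1.88), AKR1B10, an aldo-keto reductase (-1.82), BPNT1, a nucleotidase (-1.70), SPRR2D, a small proline-rich protein of squamous epithelia (-1.59), PCK2, mitochondrial phosphoenolpyruvate carboxykinase (-1.57), ITGA2, a collagen-binding integrin chain (-1.56), and FABP5, a fatty acid carrier (-1.56). Groups that do not overlap and a passed test were conditions for naming them. SPRR2D has close relatives that its probe may also read.

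**Figure D2:**
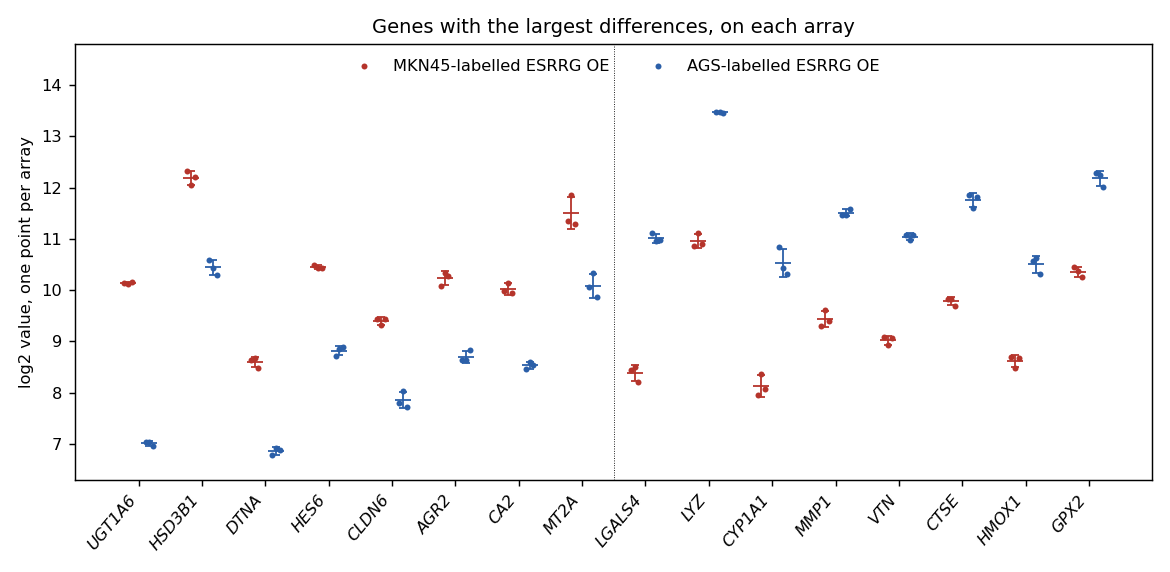
Log2 value on each array of 8 genes that were higher (left of the dotted line) and 8 that were lower (right) in MKN45-labelled (red) than in AGS-labelled (blue) ESRRG OE samples; horizontal ticks are means and bars SD, n = 3 each. No gene shown overlaps between the groups, by the rule that named them. UGT1A6 and DTNA lie near 7, the detection limit, in AGS-labelled arrays.

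Few genes were present in 1 label and absent in the other. Detected on all 3 MKN45-labelled and on no AGS-labelled array were 135 genes, of which DTNA alone exceeded a bound of 2-fold, followed by KLRC2, a natural killer cell receptor gene with near-identical relatives (at least 1.7-fold), and GRHL3, an epithelial transcription factor (at least 1.48-fold). Detected only in AGS-labelled cells were 69 genes, none of them past 2-fold. PAGE4, a cancer-testis gene, was at 6.87, 6.84 and 6.70 in MKN45-labelled arrays, against 7.59, 7.63 and 7.97 in AGS-labelled arrays (at least 1.7-fold lower), and IGFBP5, an insulin-like growth factor binding protein, was at least 1.56-fold lower. These levels lie just above the detection limit.

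Genes of protein folding and protein breakdown were mostly higher in MKN45-labelled cells. Of 32 tested genes of the unfolded protein response and heat shock chaperones, 21 were higher in MKN45-labelled cells and 2 lower, with a median of 0.37, where all genes had 19.8% higher, 18.3% lower and a median of 0.01. Of 27 proteasome subunits, 19 were higher and 1 lower (median 0.40). HSPA8, the constitutive cytosolic HSP70, was at 11.91, 11.74 and 12.14 in MKN45-labelled arrays, against 10.90, 10.96 and 10.80 in AGS-labelled arrays (2.06-fold, adjusted p = 1.2e-05). HSPE1, the mitochondrial co-chaperonin, was 1.77-fold higher and PDIA4, a disulfide isomerase of the endoplasmic reticulum, 1.68-fold higher. Lower were DNAJB9, a co-chaperone of the endoplasmic reticulum (-0.33), and DNAJB1, a cytosolic one (-0.20). With the arrays only scaled to one median DNAJB1 turned to 0.11, and DNAJB9, at -0.08, was no longer past the test.

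Among the proteasome genes, PSMD1, a base subunit of the regulatory particle, was at 10.72, 10.81 and 11.09 in MKN45-labelled arrays, against 9.90, 9.82 and 9.76 in AGS-labelled arrays (2.06-fold, adjusted p = 8.6e-06). PSMA2, a subunit of the core ring, was 1.6-fold higher. The exception was PSMD12, a lid subunit, at 9.89, 9.93 and 9.87 in MKN45-labelled arrays, against 10.45, 10.57 and 10.71 in AGS-labelled arrays (1.6-fold lower). In the control state these lists had medians of 0.06 for the chaperones and 0.07 for the proteasome, with 3 of 32 and 1 of 27 members higher, where 5.02% of all genes were higher and 6.71% lower.

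The promoter window of HSPA8 (RefSeq, GRCh38.p14, chr11:123062087-123062386, minus strand) is shown for the chaperones. Capitals mark GAANNTTC, a pair of inverted heat shock factor units that reads the same on both strands, found 2 times in this window. Of 32 chaperone windows, 6 hold it (18.8%), against 6.87% of all windows and 4.7% of the windows of tested genes. The list was gathered for chaperones, and the bearing of this motif on the difference between the labels was not tested.
HSPA8: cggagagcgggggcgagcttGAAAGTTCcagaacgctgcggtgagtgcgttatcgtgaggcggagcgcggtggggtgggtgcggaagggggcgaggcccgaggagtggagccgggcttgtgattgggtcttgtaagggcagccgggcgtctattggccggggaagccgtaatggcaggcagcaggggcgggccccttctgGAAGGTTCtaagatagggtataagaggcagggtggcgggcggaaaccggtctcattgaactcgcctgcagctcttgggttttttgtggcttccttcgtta

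Genes of the response to ATF4, a stress-induced transcription factor, and of amino acid supply were mostly lower. Of 32 tested members, 19 were lower in MKN45-labelled cells and 2 higher (median -0.45), and 4 were over 2-fold lower. PCK2 was at 10.30, 10.46 and 9.90 in MKN45-labelled arrays, against 11.79, 11.85 and 11.74 in AGS-labelled arrays (2.97-fold lower, adjusted p = 1.8e-06). SLC7A11, the cystine importer, was at 8.10, 8.23 and 7.42 in MKN45-labelled arrays, against 9.27, 9.22 and 9.30 in AGS-labelled arrays (2.54-fold lower), with MKN45 replicate 3 the lowest. SLC1A5, a glutamine carrier, was 2.15-fold lower and ASNS, asparagine synthetase, lower by a log2 difference of -1.04. PSAT1 and PYCR1, of serine and proline synthesis, differed by -0.88 and -0.70, and AARS1 and WARS1, which charge tRNAs with alanine and tryptophan, by -0.77 and -0.64.

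The 2 members that were higher were DDIT3, the transcription factor CHOP (0.51), and TRIB3, a pseudokinase that binds ATF4 (0.53). TRIB3 overlapped between the groups, at 9.75, 10.14 and 9.10 in MKN45-labelled and 9.17, 9.16 and 9.05 in AGS-labelled arrays. ATF4 itself differed by -0.01, not past the test. In the control state the list had a median of 0.01, with 3 members higher and 2 lower. Scaled to one median, the arrays gave 12 members lower, 6 higher and a median of -0.13, which is -0.30 relative to all genes, and without any 1 array the median stayed between -0.52 and -0.33.

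The promoter window of ASNS (RefSeq, GRCh38.p14, chr7:97872359-97872658, minus strand) is shown for this list. Capitals mark TGATGNAA, the element bound by C/EBP and ATF partners, searched on both strands, with 1 match starting 68 bases before the transcription start. Of the list's 27 members with a window, 7 hold the motif (25.9%), and of the 15 lower members with a window 4 do (26.7%), against 3.67% of all windows and 1.72% of the windows of tested genes. A match is a run of letters and not a measured binding site. The list was gathered for the ATF4 response, so a raised share can follow from that choice. The bearing of the motif on the difference between the labels was not tested.
ASNS: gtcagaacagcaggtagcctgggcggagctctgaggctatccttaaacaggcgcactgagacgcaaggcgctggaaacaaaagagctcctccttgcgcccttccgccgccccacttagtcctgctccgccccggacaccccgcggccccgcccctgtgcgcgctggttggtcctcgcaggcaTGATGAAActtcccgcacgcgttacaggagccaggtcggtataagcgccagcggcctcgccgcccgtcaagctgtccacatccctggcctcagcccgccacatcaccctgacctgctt

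**Figure D3:**
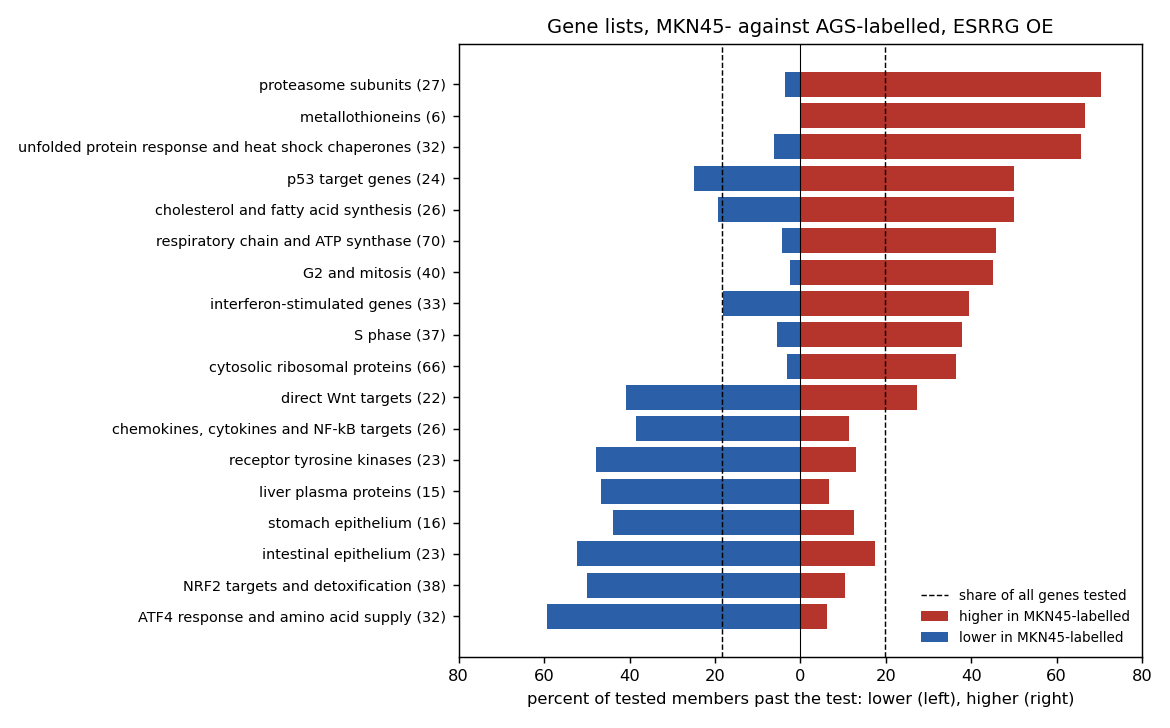
Percent of the tested members (number in brackets) of 18 gene lists that were higher (red, right) or lower (blue, left) in MKN45-labelled than in AGS-labelled ESRRG OE samples at an adjusted p under 0.05; dashed lines give the share of all genes tested, 19.8% higher and 18.3% lower. Proteasome subunits, metallothioneins and chaperones reach farthest to the right and the ATF4 list farthest to the left.

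Among 38 NRF2 targets and other detoxification genes, 19 were lower in MKN45-labelled cells, 4 higher and 15 not past the test (median -0.23, turning to 0.04 with 14 lower and 8 higher when arrays were scaled to one median). Besides CYP1A1, HMOX1 and AKR1B10, the lower members included AKR1C3, an aldo-keto reductase (-0.94), TXNRD1, thioredoxin reductase (-0.89), NQO1, a quinone reductase (-0.78), and GCLM, of glutathione synthesis (-0.54). The higher members were UGT1A6, MGST1 and GSTA4, glutathione transferases (0.55 and 0.44), and PGD, of the pentose phosphate pathway (0.30). NFE2L2, which encodes NRF2, and its inhibitor KEAP1 did not pass the test (-0.04 and -0.18). Under control 14 members were lower and 4 higher (median -0.22).

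Metallothioneins were higher or not past the test, with 4 of 6 higher and 0 lower (median 0.35). MT2A was at 11.34, 11.85 and 11.29 in MKN45-labelled arrays, against 10.05, 10.32 and 9.86 in AGS-labelled arrays (2.67-fold, adjusted p = 2e-05), and MT1X, its close relative, was 1.76-fold higher. Replicate 2 was the highest within each group for MT2A and for MT1X.

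Among genes of energy and growth, 32 of 70 genes of the respiratory chain and ATP synthase were higher in MKN45-labelled cells and 3 lower, with a small median of 0.14. UQCR10 and UQCRB, subunits of complex III, were 1.68-fold and 1.62-fold higher, whereas NDUFV1, a flavoprotein of complex I, was 1.45-fold lower. With scaling to one median the counts were 57 higher and 0 lower, and NDUFV1 was no longer past the test (-0.18). Of 37 genes of the TCA cycle and fatty acid oxidation 8 were higher and 8 lower, but 21 higher and 3 lower with that scaling. Of 66 ribosomal protein genes 24 were higher and 2 lower (median 0.14), with RPL29 1.65-fold higher; RPS24, 1 of the 2 lower, turned to 0.11 with scaling to one median and to 0.25 with its probes averaged. Many of these genes have pseudogenes that a probe may also read.

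Cell cycle genes leaned higher. Of 40 genes of G2 and mitosis 18 were higher and 1 lower (median 0.20), and of 37 S phase genes 14 were higher and 2 lower (median 0.16). ANLN, anillin of the contractile ring, was at 9.76, 10.04 and 9.98 in MKN45-labelled arrays, against 9.16, 9.08 and 9.15 in AGS-labelled arrays (1.74-fold, adjusted p = 2.7e-05). CKS2, a cofactor of cyclin-dependent kinases, was 1.71-fold higher and TYMS, thymidylate synthase, 1.49-fold higher. CDC25B, a phosphatase that opens mitosis, was the exception, 1.73-fold lower. MKI67, the proliferation marker Ki-67, differed by 0.12 and TOP2A by -0.02, neither past the test, with MKI67 detected on 2 of 3 MKN45-labelled and 1 of 3 AGS-labelled arrays.

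Of 24 tested p53 target genes, 12 were higher in MKN45-labelled cells and 6 lower (median 0.24). SESN1, a stress-induced regulator of growth signaling, was at 10.04, 10.05 and 10.04 in MKN45-labelled arrays, against 9.07, 9.23 and 8.97 in AGS-labelled arrays (1.94-fold, adjusted p = 4.9e-06). TP53INP1, a p53-induced nuclear protein, was 1.8-fold and TRIAP1, an inhibitor of apoptosis, 1.72-fold higher. BAX, the pore-forming killer protein, was 1.5-fold lower, and CDKN1A, the cell cycle inhibitor p21, differed by -0.33 but with scaling to one median none of the list's 24 genes was lower past the test, BAX was at -0.20 and CDKN1A at 0.046. In the control state the list had a median of -0.04, with 2 members higher and 5 lower.

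Synthesis of cholesterol and fatty acids showed 13 of 26 members higher and 5 lower (median 0.21), but 16 higher and 1 lower with scaling to one median. ELOVL6, a fatty acid elongase, was 1.84-fold higher, IDI1, of the isoprenoid pathway, 1.71-fold higher and FASN, fatty acid synthase, 1.66-fold higher at 10.19, 10.07 and 10.01 in MKN45-labelled arrays, against 9.39, 9.28 and 9.42 in AGS-labelled arrays. HSD17B7, a late step of cholesterol synthesis, was 1.59-fold lower, and SREBF1, a transcription factor of the pathway, lower at -0.47. Of 37 genes of hypoxia response and glycolysis 8 were higher and 10 lower, but 18 higher and 3 lower with scaling to one median, and INSIG2, which holds the sterol-sensing complex in the endoplasmic reticulum, and HKDC1, a hexokinase family member, were 2.08-fold and 2.24-fold lower.

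Of 23 tested intestinal epithelium genes 12 were lower and 4 higher (median -0.22), but 5 lower and 7 higher (median 0.03) with scaling to one median. KRT20, a keratin of gut surface cells, was at 7.03, 6.86 and 6.90 in MKN45-labelled arrays, with detection on 1 of 3, against 8.22, 8.24 and 8.47 in AGS-labelled arrays (2.6-fold lower, adjusted p = 4.7e-07). CDX2, the intestinal homeobox factor, differed by -0.72. REG4, a secreted lectin of goblet and endocrine cells, went the other way at 2.06-fold higher, with 11.45, 10.97 and 11.22 in MKN45-labelled and 10.18, 10.11 and 10.22 in AGS-labelled arrays, as did CEACAM6, an adhesion molecule, at 1.94-fold.

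Of 16 stomach genes 7 were lower and 2 higher (median -0.10). SOX2, a foregut transcription factor, was at 8.45, 8.26 and 8.29 in MKN45-labelled arrays, against 7.31, 7.41 and 7.43 in AGS-labelled arrays (1.93-fold, adjusted p = 4.2e-06), and TFF1, a trefoil peptide of gastric surface mucus, was 1.55-fold higher. ATP4A and ATP4B, both chains of the parietal cell proton pump, were lower. ATP4A was at 7.03, 7.06 and 7.10 in MKN45-labelled arrays, against 8.01, 7.88 and 7.61 in AGS-labelled arrays, and ATP4B at 7.70, 7.76 and 7.70 in MKN45-labelled arrays, against 8.19, 8.58 and 8.48 in AGS-labelled arrays. Both were detected on all 6 ESRRG OE arrays and on none of the 6 control arrays, so their difference under control was not measured.

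Of 15 tested genes for liver plasma proteins, 7 were lower and 1 higher (median -0.24), and 5 lower and 3 higher (median 0.10) with scaling to one median. APOA2, an apolipoprotein, was at 10.44, 10.56 and 10.59 in MKN45-labelled arrays, against 11.76, 11.87 and 11.97 in AGS-labelled arrays (2.53-fold lower, adjusted p = 3e-07). Relative to all genes, the medians under that scaling were -0.13 for the intestinal and -0.07 for the liver list, and -0.18 for the stomach list.

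Receptor tyrosine kinases had 11 of 23 members lower and 3 higher (median -0.18), and their ligands 10 of 22 lower and 3 higher (median -0.14). FGFR4, a fibroblast growth factor receptor, was 1.7-fold lower, at 7.83, 7.84 and 7.69 in MKN45-labelled and 8.73, 8.57 and 8.36 in AGS-labelled arrays. ERBB3, a receptor for neuregulins, was 1.51-fold lower and FGFR3 1.48-fold lower. KITLG, stem cell factor, was 1.92-fold higher, the largest difference among the tested ligands. The receptor median kept its sign with scaling to one median (-0.03, with 5 lower and 7 higher), whereas the ligand median turned to 0.01.

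The genes the study named for ESRRG and Wnt signaling were split. LEF1, which the paper also names, was not among the 10 of 12 listed genes that were tested. Of 10 tested, 4 were higher and 4 lower in MKN45-labelled cells, but 4 higher and 2 lower with scaling to one median. TCF7L2, a transcription factor partner of beta-catenin, was at 8.67, 9.06 and 9.09 in MKN45-labelled arrays, against 10.15, 10.12 and 9.80 in AGS-labelled arrays (2.12-fold lower, adjusted p = 3.6e-05). AXIN2, a feedback inhibitor and Wnt target, was at 10.64, 10.43 and 10.34 in MKN45-labelled arrays, against 11.73, 11.67 and 11.57 in AGS-labelled arrays (2.28-fold lower). CCND1, cyclin D1, and CTNNB1, beta-catenin, differed by -0.49 and -0.38, whereas SKP1 (0.79), of ubiquitin ligases, TOP2B (0.47), a topoisomerase, PCNA (0.47), the replication clamp, and DVL3 (0.29), a Wnt transducer, were higher. LGR5 (0.00) and JAG1 (-0.13) did not pass the test. Under control 0 of the 10 were higher and 3 lower, and 3 interactions were positive and 1 negative past the test. With scaling to one median, 1 interaction was positive and 0 negative past it. AXIN2 differed by -1.16 under control, with an interaction of -0.03 not past the test. CCND1 (-0.03), CTNNB1 (0.08) and DVL3 (-0.23) did not pass the test under control, and the interaction of DVL3 was 0.52, past it.

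Of 22 tested direct Wnt targets 9 were lower and 6 higher (median -0.10), but 4 lower and 7 higher (median -0.02) with scaling to one median, and of 32 pathway components 9 were lower and 5 higher (median -0.06). SOX9, a transcription factor of gut progenitors, was at 10.82, 10.78 and 10.49 in MKN45-labelled arrays, against 12.09, 11.91 and 11.98 in AGS-labelled arrays (2.45-fold lower, adjusted p = 1.4e-06), and MYC was 1.71-fold lower. CD44 (0.44) and BIRC5 (0.44) were higher. The component median turned to 0.10 with scaling to one median, and no direction is given for either list.

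Matrix and inflammatory genes held some of the larger single differences. Of 31 matrix proteases, plasminogen system genes and serpins, 11 were lower and 5 higher, but 4 lower and 12 higher with scaling to one median, and MMP10, a stromelysin, was 2.13-fold lower beside MMP1. ITGB4, the hemidesmosome integrin chain, was at 7.80, 7.93 and 7.83 in MKN45-labelled arrays, against 9.50, 9.50 and 8.97 in AGS-labelled arrays (2.76-fold lower, adjusted p = 4.7e-06). IL33, an alarmin of epithelial cells, was at 7.01, 6.99 and 6.93 in MKN45-labelled arrays, with detection on 2 of 3, against 8.51, 8.32 and 8.38 in AGS-labelled arrays (2.69-fold lower). The list of chemokines, cytokines and NF-kB targets had 10 of 26 members lower and 3 higher (median -0.11, turning to 0.07 with scaling to one median).

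Interferon-stimulated genes pointed both ways, with 13 of 33 higher and 6 lower (median 0.14). Higher were IFI44 (0.85) and OASL (0.79), antiviral effectors, with OASL at 9.66, 9.63 and 9.40 in MKN45-labelled arrays, against 8.77, 8.72 and 8.82 in AGS-labelled arrays. Lower was IRF7, the transcription factor of type I interferon genes, at 8.08, 8.40 and 7.90 in MKN45-labelled arrays, against 9.21, 9.24 and 8.75 in AGS-labelled arrays (1.92-fold lower, adjusted p = 0.00029). Under control 18 members were higher and 1 lower (median 0.48).

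Setting both states side by side asked which differences between the labels belonged to the ESRRG state. The ESRRG OE and control comparisons used different arrays. In the control state 1320 genes passed the test, 565 higher (5.02%) and 755 lower (6.71%), and without MKN45 control replicate 3 the count was 856. Of the 4280 genes called under ESRRG OE, 855 were called in the same direction in the control state, 20% of the ESRRG OE calls and 64.8% of the control calls, and 52 in the opposite direction. Of the 109 genes over 2-fold, 75 were called in the same direction in the control state, 2 in the opposite one, and 30 were over 2-fold there too. Across genes, which are not independent replicates, the differences of both states correlated at a Pearson r of 0.536 and a Spearman rho of 0.45.

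The interaction, the difference between the labels under ESRRG OE minus that under control, passed the test for 1174 genes, 564 positive (5.01%) and 610 negative (5.42%). The count was 743 without AGS ESRRG OE replicate 1 and 733 without AGS ESRRG OE replicate 2. It was 347 with the arrays only scaled to one median, of which 63.4% were positive, where the deposited values gave 48%. Of the 109 genes over 2-fold, 75 passed the interaction test.

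**Figure D4:**
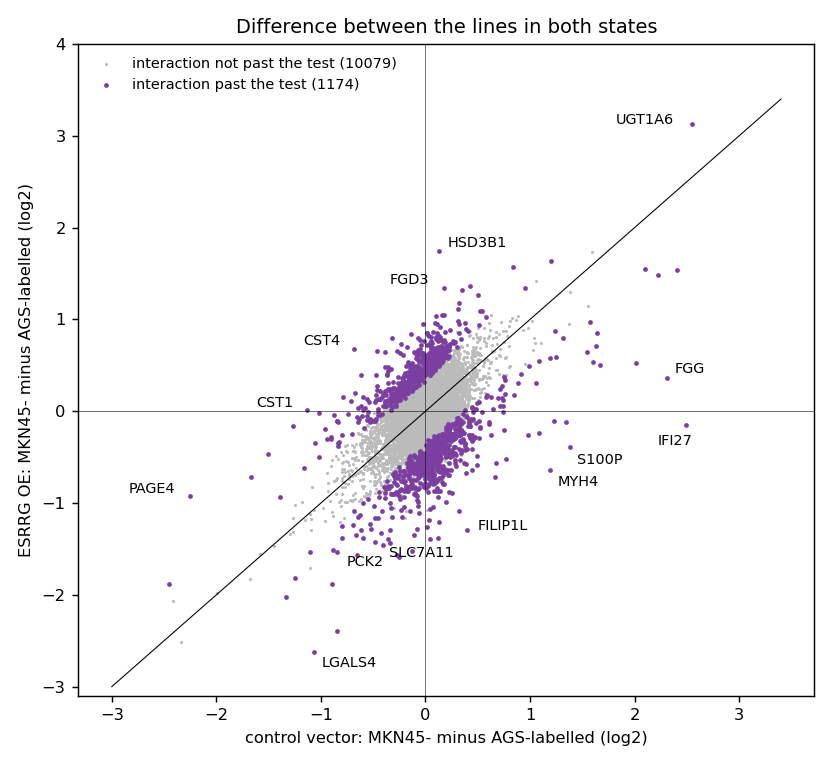
Difference between MKN45-labelled and AGS-labelled samples (log2) under ESRRG OE (vertical axis) against the same difference under the control vector (horizontal axis), 1 point per gene, with the line of equal differences. The 1174 purple genes passed the interaction test; UGT1A6 differed in both states, HSD3B1 under ESRRG OE alone past the test, and IFI27 under control alone past the test.

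The gene lists differed in how much of their interaction passed. In the ATF4 list 15 of 32 members had a negative interaction and 1 a positive one, in the chaperone list 11 of 32 were positive and 1 negative, and in the proteasome list 6 of 27 were positive and 0 negative. The p53 list had 9 of 24 positive and 0 negative, and the respiratory chain list 10 of 70 positive and 0 negative. The interferon-stimulated genes had 15 of 33 negative and 0 positive. With scaling to one median, the counts were 7 negative in the ATF4 list, 7 positive in the chaperone list, 0 in the proteasome list, 6 positive in the p53 list, 1 positive in the respiratory chain list and 7 negative among the interferon-stimulated genes.

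**Figure D5:**
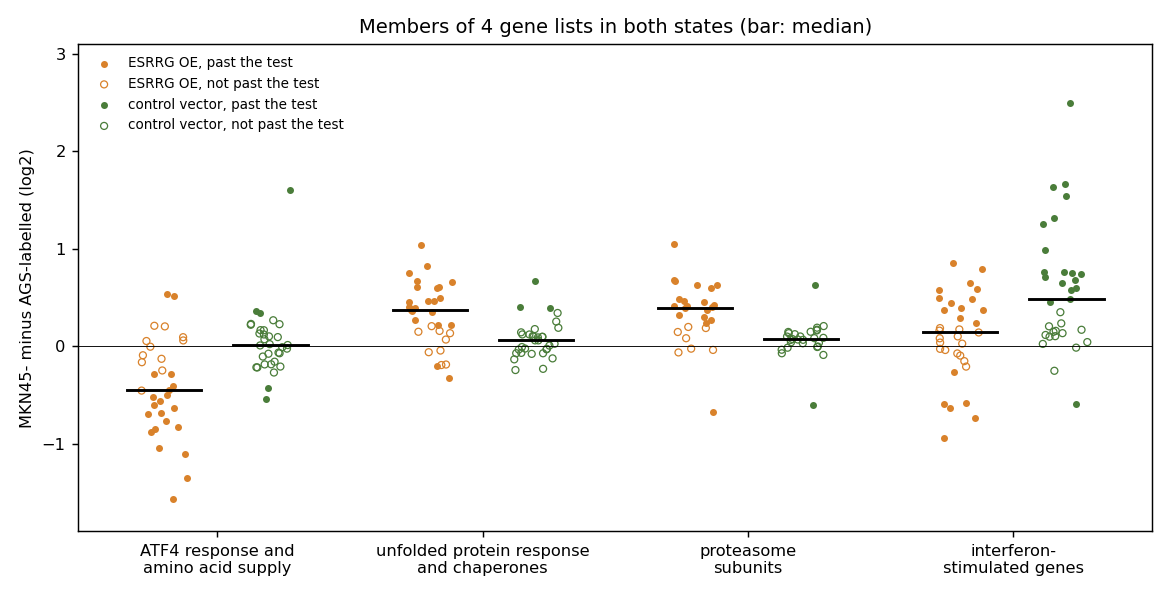
Difference between MKN45-labelled and AGS-labelled samples (log2) for every tested member of 4 gene lists, under ESRRG OE (orange) and under the control vector (green); filled points passed the test and bars are medians. The ATF4 list lies at a median of -0.45 under ESRRG OE and 0.01 under control, and the interferon-stimulated genes at 0.14 and 0.48.

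Single genes showed how the states differed. IFI27, an interferon-induced mitochondrial protein, overlapped under ESRRG OE, at 11.72, 11.81 and 11.53 in MKN45-labelled and 11.76, 11.88 and 11.88 in AGS-labelled arrays, but apart under control, at 10.59, 10.93 and 10.93 in MKN45-labelled and 8.14, 8.67 and 8.15 in AGS-labelled arrays (interaction -2.65, adjusted p = 3.1e-08). FGG, the fibrinogen gamma chain, was at 13.57, 13.65 and 13.61 in MKN45-labelled and 13.35, 13.19 and 13.22 in AGS-labelled arrays under ESRRG OE, and at 10.45, 10.46 and 10.51 in MKN45-labelled and 8.18, 8.13 and 8.17 in AGS-labelled arrays under control (interaction -1.95, adjusted p = 1.1e-09). For both genes the AGS-labelled cells stood lower under control, and the labels differed by -0.15 and 0.36 under ESRRG OE.

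CST4, a salivary-type cystatin, turned over between the states, at 13.04, 12.88 and 12.88 in MKN45-labelled and 12.15, 12.27 and 12.33 in AGS-labelled arrays under ESRRG OE (0.68), but at -0.68 under control (interaction 1.36, adjusted p = 7.1e-07). CST1, its close relative, overlapped under ESRRG OE (0.01) and differed by -1.14 under control, and the probes of both may read each other's transcripts. FILIP1L, a filamin-interacting protein, was at 9.86, 9.65 and 9.58 in MKN45-labelled and 11.01, 11.13 and 10.83 in AGS-labelled arrays under ESRRG OE (-1.29), against 0.40 under control. S100P, a calcium-binding protein of gastrointestinal cancers, differed by -0.40 under ESRRG OE and 1.38 under control, and MYH4, a muscle myosin, by -0.64 and 1.19.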

How the data were processed

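Illumina BeadChip data of 12 samples were taken from the processed tables; the analysis rests on 6 ESRRG OE samples, and groups follow the labels. The authors deposited probe intensity on a linear scale, and a detection p-value per probe and array. GenomeStudio appears in the submitters' processing notes without a version. A table of log2 values, which the authors deposited as well, was quantile-normalized over all arrays in limma, as their methods state; normalizing the intensities again gave these within 0.0005. Probes were named through the platform's annotation: 30113 had 1 symbol, 8 several and 17202 none; the last 2 kinds named no gene.

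Differences were computed as MKN45 minus AGS on the log2 scale with lmFit and eBayes (R 4.3.3, limma 3.58.1), with p-values adjusted by Benjamini-Hochberg over the 20210 kept probes, and the threshold was 0.05. Names follow a rule: the genes the study names, the 15 largest differences in each direction among genes whose groups do not overlap, the 10 highest bounds among genes detected in 1 line only, the 3 largest per list and direction, and the 5 largest interactions in each direction. AARS1, AKR1C3, ASNS, ATF4, GCLM, IFI6, KEAP1, MET, MKI67, NFE2L2, NQO1, PGD, PRKAR1A, PSAT1, PYCR1, TOP2A, TXNRD1, UGT1A1, WARS1 and the markers KRT8, KRT18, EPCAM, CD2, CD68, CSF1R, LCP1, CD3D, CD3E, CD8A and CD14 are named outside it, after their values were seen. Members and the 46 gene lists were chosen with earlier results of these data known, and no set test was run. The fit was tested on simulated data. Precision is limited by having 3 arrays per group, and folds of probes near background are understated. Where a gene was detected on no array of a group, that group was set on each array at the higher of its own value and the lowest detected value. Alternatives were median scaling, quantile normalization of the 6 arrays alone or done again, neqc with an offset of 16, and no or a stricter detection filter (p under 0.01). Others were all 12 arrays in 1 fit, a replicate block, averaged probes and leaving out each array. A further one was an ordinary t-test with each probe's own spread. The paper names a random variance t-test in its methods and Student's t-test in a figure legend.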

Additional observations from a re-analysis of the deposited data

Results flagged for a closer look

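The 10 interactions below are the 5 largest in each direction; each is the difference between the labels, MKN45 minus AGS, under ESRRG OE minus that under the control vector, and each passed the interaction test in limma. Positive were HSD3B1 (1.62), CST4 (1.36), PAGE4 (1.32), FGD3 (1.17) and CST1 (1.14). Negative were IFI27 (-2.65), FGG (-1.95), MYH4 (-1.83), S100P (-1.78) and FILIP1L (-1.69). PAGE4 was detected on no MKN45 ESRRG OE array, so its difference under ESRRG OE is only a bound (at least 1.7-fold lower) and its interaction is a fitted value that does not measure a difference between the states. HSD3B1 lay near the detection limit under control, so its difference there was poorly measured. All 10 kept their direction and stayed past the test under every alternative run for the interaction.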

How the results depend on the processing

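The 4280 calls ranged from 3174 to 4539 when 1 array was left out. An ordinary t-test with each probe's own spread and Benjamini-Hochberg adjustment gave 2307. Genes over 2-fold higher and lower numbered 27 and 82; the counts were 109 and 36 with scaling to one median, 150 and 261 with neqc, and 26 to 32 and 77 to 101 without 1 array. All 109 were past the test under every alternative except the ordinary t-test, which called 103. The 1174 interactions became 347 with scaling to one median, 674 with neqc, 591 with the ordinary t-test and 733 to 1250 without 1 array. The 1320 control calls became 453 with scaling to one median, where 68.2% were higher in MKN45 in place of 42.8%, and 856 to 1191 without 1 array. Of 248 named genes 88 changed their side of the test or their sign under some alternative, and 5 changed sign: with scaling to one median CDKN1A moved to 0.046, DNAJB1 to 0.11, ESRRA to 0.056, KRT19 to 0.054 and RPS24 to 0.11, and RPS24 moved to 0.25 with averaged probes. Scaling to one median turned the sign of the median in 27 of 46 lists. Same-numbered ESRRG OE samples of MKN45 and AGS did not deviate together (correlations 0.02, -0.02 and -0.02, and 1 of 3 numbers matched best with itself). Pairing by number among control samples, or between ESRRG OE and control samples, was not checked. With the replicate block the calls were 4124, the interactions 1221 and the control calls 1590. The cause of these changes was not tested. Signals near the detection limit bound what can be seen, since a probe there has no measured level.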

Other observations

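Of 17 tested tight junction genes 6 were lower and 3 higher in MKN45-labelled cells (median -0.09, turning to 0.01 with scaling to one median), with CLDN7, a claudin of simple epithelia, at -0.73 beside the higher CLDN6, and MARVELD3, a tight junction protein, at 0.61. Of 11 S100 genes 5 were higher and 1, S100P, lower, but 8 higher and 0 lower with that scaling. S100A3 was at 0.76 and S100A13 at 0.54. Of 9 HOX genes 3 were lower and 0 higher (median -0.10, turning to 0.01 with that scaling), with HOXB5 at -0.79.

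By chromosome, 28% of 729 tested genes on chromosome 2 were higher in MKN45-labelled cells and 14.4% lower, whereas on chromosome 20 14.1% of 312 were higher and 26.3% lower. On chromosome 20 the median difference was -0.06 under ESRRG OE and -0.11 under control. Of the 82 genes over 2-fold lower among all 11253, 14 lie on chromosome 17, which holds 687 of the tested genes. These shares were not tested.

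IFI6, an interferon-induced protein with 2 kept probes, had its dimmer probe at 8.85, 8.82 and 11.54 in MKN45-labelled and 11.16, 11.95 and 11.87 in AGS-labelled ESRRG OE arrays, while the brighter probe was at 11.51, 11.79 and 11.99 in MKN45-labelled and 12.11, 11.92 and 11.89 in AGS-labelled arrays. PRKAR1A, a regulatory subunit of protein kinase A, had a dimmer probe at 6.95, 7.23 and 7.15 in MKN45-labelled and 9.30, 9.51 and 9.74 in AGS-labelled arrays, and a brighter one at 9.93, 10.07 and 9.97 in MKN45-labelled and 10.99, 10.55 and 10.81 in AGS-labelled arrays.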
